A study of Mus musculus with 11 samples.

Results

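Adipose stem cells are the fibroblast-like cells of fat tissue that give rise to adipocytes and build the tissue's matrix. DPP4, or CD26, is a membrane-bound peptidase that marks a part of them, often described as a progenitor pool held in the connective tissue that surrounds the fat lobules. Cells without DPP4 are usually described as closer to the adipocyte lineage or as supporting cells near vessels. The cells described here were sorted by DPP4 protein on the surface, and the values are mRNA levels in the sorted cells.

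The study profiled single cells of the stromal vascular fraction (the cells of fat other than adipocytes) from perigonadal white fat of adult male and female mice with Smart-seq2, a full-length method without molecular identifiers. All mice were Pdgfrb-GFP transgenics, Tg(Pdgfrb-eGFP), backcrossed to C57BL6/J, in which green fluorescent protein reports Pdgfrb, a receptor of mural cells and fibroblasts. None of the mice had a further treatment or deletion in the labels. The DPP4-positive sort was 1 plate of female mouse 2, labelled PDGFRB-positive and DPP4-positive, and the DPP4-negative sort was another plate of that mouse, labelled CD31-negative, DPP4-negative and PDGFRB-positive. Cells were kept if they had at least 20 CPM (reads scaled to the total in genes) of Pdgfra, a receptor of fibroblasts. This left 365 of 379 and 361 of 369 cells, 726 in all out of the 3261 cells of the study. The lowest kept cells had 21.0 and 20.4 CPM of Pdgfra and the highest cells left out had 19.0 and 19.1 CPM.

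With 1 plate for each sort and 1 animal, the sort cannot be told apart from anything else that differed between the plates, and no test between the sorts was possible. Values of the sorts are therefore levels over all reads of a plate, with intervals that cover counting error only. The replicated measurement came from the 6 other mouse ids, whose plates carried no DPP4 sort: there, Pdgfra-positive cells with and without a read of Dpp4 were compared within each mouse. The label of the DPP4-positive plate says PDGFRB-positive, and the study's methods describe DPP4 gates only within CD31-negative, PDGFRB-positive cells. Its column names, however, begin like those of PDGFRB-negative plates, which leaves some doubt about the gate. Pdgfrb itself stood at 187 CPM in the DPP4-positive and 263 CPM in the DPP4-negative sort, between 67.6 and 489 CPM on the 3 female plates gated on PDGFRB and not on DPP4. A 4th female plate without a DPP4 gate, which mixed PDGFRB-negative CD31-positive cells with the reverse, was left out of this and the like ranges and stood at 194 CPM of Pdgfrb.

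The sorts were close in reads, genes per cell and mitochondrial share, but not in all measures of quality. The median cell had 792328 reads in the DPP4-positive and 745682 reads in the DPP4-negative sort, and 3909 and 4196 genes with a read after every cell was thinned to 100000 reads. The median mitochondrial share was 1.90% and 2.11%. Spike-in RNA, which was added to the wells, had a median share of 1.57% in the DPP4-positive and 3.14% in the DPP4-negative sort. Ribosomal RNA differed: these rows took 41.0% of reads in the DPP4-positive and 27.4% in the DPP4-negative sort, which lowers the CPM of all other genes of the first. No cell of the DPP4-positive plate had the same counts as a cell of the DPP4-negative plate, and cells within a plate were not compared in this way. Of the 8 markers of adipose stem cells, Pdgfra was used to keep the cells and so is no check of the label. The others were high in both sorts, from Dcn with 9301 and 16317 CPM to Cd34 with 1148 and 841 CPM. Markers of endothelial cells summed to 4.45 and 5.59 CPM over 8 genes, those of macrophages to 5.19 and 9.11 CPM over 8 genes, and 3 of the 4 epithelial markers present were at 0 in both. Higher in the DPP4-negative sort were markers of pericytes (8.60 against 41.7 CPM over 6 genes, with Kcnj8 and Higd1b at 0 in the DPP4-positive sort), of smooth muscle (33.2 against 137 CPM over 6 genes, with Cnn1 at 0) and of adipocytes (46.3 against 174 CPM over 10 genes, with Adipoq at 0). In the adipocyte sum Fabp4 alone made 12.2 and 127 CPM, and the other 9 genes summed to 34.1 and 46.4 CPM. Markers of mesothelial cells summed to 64.1 and 60.8 CPM, with 7 of 12 at 0 in both sorts, and those of lymphatic endothelium to 134 and 93.3 CPM over 6 genes. In each of these lists only 1 gene reached 20 CPM in a sort: Wt1 in the mesothelial and Pdpn in the lymphatic list. The part of these markers in the results was not tested beyond leaving cells out, as given for Cd36, and for Acta2 and Fabp4, which are themselves markers. Of the DPP4-negative cells, 17 had more than 1000 CPM of another class's markers, against 0 of the DPP4-positive cells.

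Low counts need a second look in these plates. For genes with a high mean on a plate, the cells that lacked a high level rarely stood at 0 and formed instead a band at a few percent of that mean. In the DPP4-positive sort, Pi16 had a mean of 1229 CPM per cell, and the 89 cells at or below 50 CPM had a median of 15.6 CPM, 1.27% of the mean, with none at 0. In the DPP4-negative sort the 21 low cells for Mgp had a median of 36.0 CPM, 0.968% of a mean of 3718 CPM. Endothelial cells showed the like: Dcn, a gene of fibroblasts, had medians of 10.6 to 24.1 CPM in endothelial cells on the 4 plates that also held stem cells, and 0 CPM on the plates with 0 and 2 Pdgfra-positive cells. A share of cells with a single read is therefore given beside the share of cells above 50 CPM, a level chosen after the data were seen.

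The gene behind the sort separated the plates. Dpp4 (ENSMUSG00000035000, chromosome 2, 62330073 to 62412231, minus strand, GRCm38) stood at 174 CPM in the DPP4-positive sort (Poisson interval 173 to 176) and at 1.75 CPM in the DPP4-negative sort (1.60 to 1.91). On the log2 scale of (CPM + 1), used for all ratios between the sorts, the ratio was 5.99. After thinning, 279 of 365 DPP4-positive cells had a Dpp4 read (76.4%, exact binomial interval 71.7 to 80.7), against 11 of 361 DPP4-negative cells (3.05%, 1.53 to 5.39). None of the 232 endothelial cells of the same mouse had one (median depth 802572 reads), which allows a share of up to 1.58%. Their plate held 0 Pdgfra-positive cells, so they cannot show how many single reads on the sorted plates belong to the low band. Above 50 CPM were 232 DPP4-positive cells (63.6%) and 6 DPP4-negative cells (1.66%). So 20 cells sorted as DPP4-positive had no Dpp4 read at full depth and 113 more had up to 50 CPM, with a median of 3.64 CPM in the latter. The 3 female plates gated on PDGFRB alone or with CD31 lay between the sorts, from 73.7 to 90.4 CPM, and the plate of mixed gate was at 128 CPM.

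The bases just before the start are shown for 4 genes with large ratios between the sorts. They are Dpp4, which the sort selected, Ackr2 and Arl4d, higher in the DPP4-positive sort, and Cxcl14, higher in the DPP4-negative sort. Other genes described below, such as Adamts16 and Tmem176b, stood further out than Arl4d and Cxcl14. Each line gives the 250 bases before the gene's start from RefSeq (GRCm38.p6), read 5′ to 3′ on the gene's strand. Dpp4 lies at chr2:62412232-62412481 (minus strand), Ackr2 at chr9:121898105-121898354 (plus), Arl4d at chr11:101665291-101665540 (plus) and Cxcl14 at chr13:56296552-56296801 (minus). Capitals mark a match, on either strand, to the TATA box TATAAA, the CCAAT box, the AP-1 motif TGANTCA or the E-box CAGCTG, which do not overlap one another here.
Dpp4: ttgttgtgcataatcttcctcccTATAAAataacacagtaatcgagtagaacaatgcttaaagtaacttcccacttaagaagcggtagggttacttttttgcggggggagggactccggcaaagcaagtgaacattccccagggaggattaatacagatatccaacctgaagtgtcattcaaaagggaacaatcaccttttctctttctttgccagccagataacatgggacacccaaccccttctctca
Ackr2: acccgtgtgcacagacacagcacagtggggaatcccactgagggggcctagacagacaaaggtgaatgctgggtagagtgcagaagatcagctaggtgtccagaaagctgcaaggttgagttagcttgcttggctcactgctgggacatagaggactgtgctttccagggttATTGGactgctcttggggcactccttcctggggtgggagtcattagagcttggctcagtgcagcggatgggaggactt
Arl4d: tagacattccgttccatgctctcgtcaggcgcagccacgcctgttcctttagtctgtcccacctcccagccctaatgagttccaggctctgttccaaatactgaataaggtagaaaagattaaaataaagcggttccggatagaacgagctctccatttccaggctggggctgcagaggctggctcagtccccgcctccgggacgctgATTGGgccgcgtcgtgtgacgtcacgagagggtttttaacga
Cxcl14: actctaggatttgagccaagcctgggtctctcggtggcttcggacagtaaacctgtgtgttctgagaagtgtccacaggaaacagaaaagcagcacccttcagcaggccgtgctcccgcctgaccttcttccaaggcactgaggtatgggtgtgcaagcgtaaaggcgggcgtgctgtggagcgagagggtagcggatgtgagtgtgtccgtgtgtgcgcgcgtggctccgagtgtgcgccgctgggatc
Dpp4 held TATAAA once, starting 227 bases before the start. Ackr2 and Arl4d each held CCAAT once, on the opposite strand as ATTGG, 78 and 42 bases before the start. Cxcl14 held none of the 4. Of 27025 genes with such a window, 13.0% held TATAAA, 34.5% CCAAT, 6.87% TGANTCA and 12.8% CAGCTG, so such matches are common. Among the 12 leading genes of each sort described below, 9 of each had a window. CCAAT stood in 4 of 9 for the DPP4-positive and 0 of 9 for the DPP4-negative sort, and TATAAA in 1 and 0. The other motifs went the other way, with TGANTCA in 0 and 1 and CAGCTG in 1 and 3. These small counts were not tested.

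**Figure D1:**
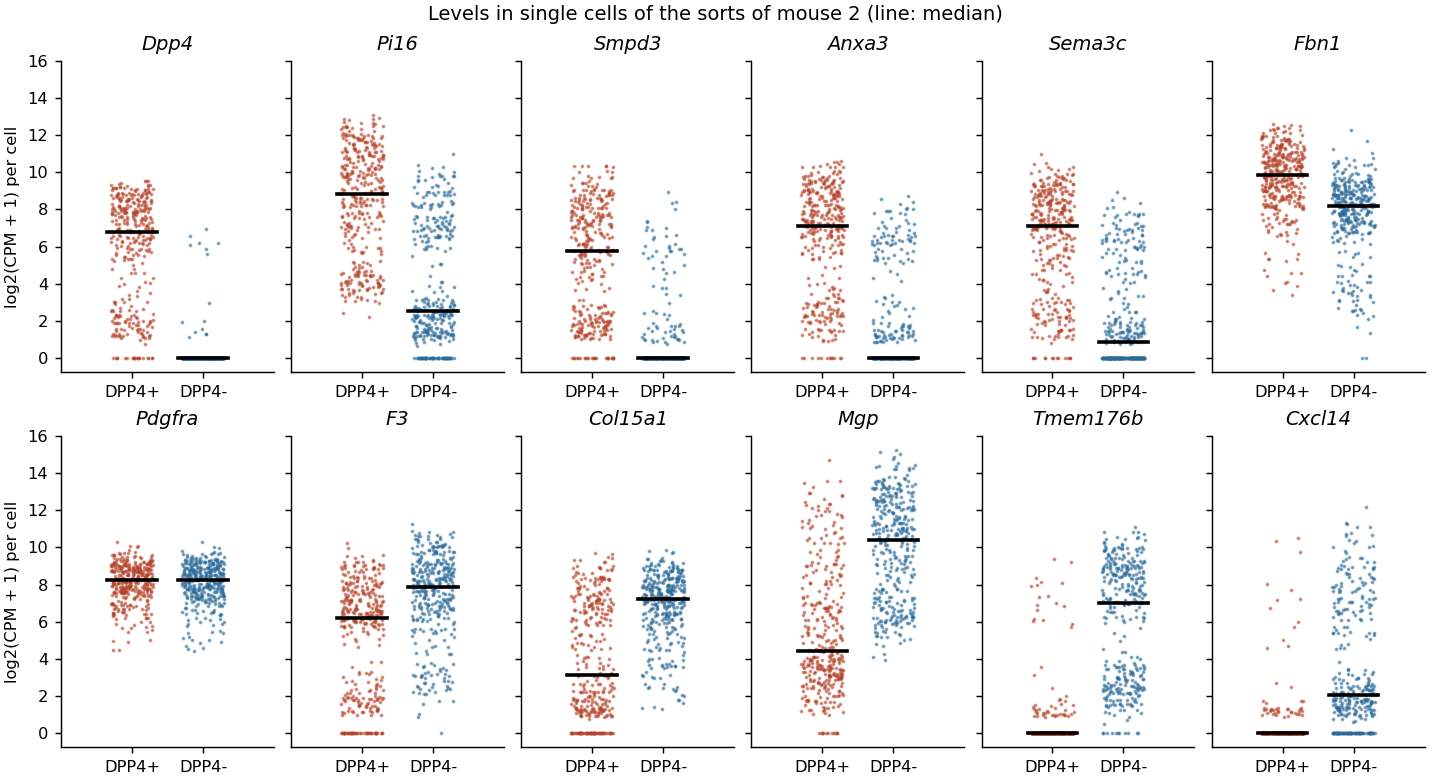
Level of 12 genes in each cell of the DPP4-positive (red, 365 cells) and DPP4-negative (blue, 361 cells) sort of mouse 2, as log2(CPM + 1) on the vertical axis, with the median as a line. Dpp4, Pi16, Smpd3, Anxa3, Sema3c and Fbn1 sit higher in the DPP4-positive cells, Pdgfra is alike, and F3, Col15a1, Mgp, Tmem176b and Cxcl14 sit higher in the DPP4-negative cells. The bands at low values hold cells with few reads of the gene shown.

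Over all genes, 5281 had at least 20 CPM in a sort. Of these, 82 were more than 2.6-fold higher in the DPP4-positive sort (1.55%) and 162 more than 2.6-fold higher in the DPP4-negative sort (3.07%). These counts depend on the scaling. With totals of reads the median log2 ratio of the 5281 genes was -0.26, and with TMM factors, which centre the bulk of genes, it was 0.04. The share of the genes past the fold that were higher in the DPP4-positive sort was 33.6% with totals and 58.1% with TMM factors (118 and 85 genes). All 82 genes and 85 of the 162 were past the fold under both. The same 3 female plates gated on PDGFRB lay between the sorts for 49 of the 82 and 40 of the 162 genes, and for 196 of the 5037 genes within the fold. Genes past the fold have by their choice a wider gap between the sorts for other plates to fall in, so these counts are not a like comparison. Ratios below are with totals, and a gene is at the middle of the distribution at -0.26, not at 0.

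Among genes with a read in at least 25% of the cells of the higher sort, the 11 with the highest ratio in the DPP4-positive sort after Dpp4 are given here. Adamts16, a secreted metalloproteinase, had 59.0 CPM against 0.0106 CPM, the latter 3 reads (Poisson interval 0.00218 to 0.0309 CPM), with 79 of 365 cells above 50 CPM against 0 of 361, which allows a share of up to 1.02%. Ackr2, an atypical receptor that scavenges inflammatory chemokines, had 94.1 against 3.26 CPM (log2 ratio 4.48) and was above 50 CPM in 152 against 8 cells. Arl4d, a small GTPase, had 107 against 4.86 CPM (4.20). These 3 genes were thus found at a high level in many DPP4-positive cells and in few or no DPP4-negative cells. Smpd3, a neutral sphingomyelinase, had 168 against 10.6 CPM (3.86), and Uchl1, a deubiquitinating enzyme, 84.6 against 6.26 CPM (3.56). Anxa3, an annexin, had 274 against 27.2 CPM (3.29), and Pi16, a peptidase inhibitor used as a marker of progenitor fibroblasts, 1276 against 131 CPM (3.28). Ptgs1, the constitutive cyclooxygenase, Opcml, a cell adhesion molecule, Limch1, an actin-associated protein, and Adgrg2, an adhesion receptor, had ratios of 3.07 to 3.17. The 4 stood at 22.1 to 41.3 CPM in the DPP4-positive sort.

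Pi16 varied widely within the sorts. It was above 50 CPM in 276 of 365 DPP4-positive cells (75.6%, exact binomial interval 70.9 to 79.9) and in 127 of 361 DPP4-negative cells (35.2%, 30.3 to 40.4). With a single read after thinning the shares were 96.2% and 52.4%, against 0.862% of endothelial cells. Those endothelial cells came from a plate with 0 Pdgfra-positive cells, so their share is no measure of the low band on the sorted plates. The middle 50% of cells ran from 52.4 to 1805 CPM in the DPP4-positive and from 1.43 to 121 CPM in the DPP4-negative sort, so the cells of the sorts overlapped. Of all pairs of 1 cell from each sort, the DPP4-positive cell was the higher in 85.1% for Pi16, 89.9% for Smpd3, 88.0% for Anxa3 and 96.2% for Dpp4.

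At the other end, chosen by the same rule, were Tmem176b and its neighbour Tmem176a. Tmem176b and Tmem176a, genes for membrane proteins on chromosome 6, had 9.80 against 282 CPM (log2 ratio -4.71) and 2.99 against 72.9 CPM (-4.21). The annotated spans of these genes overlap on opposite strands, and reads there cannot be told apart without strand. Tmem176b was above 50 CPM in 18 of 365 DPP4-positive and 207 of 361 DPP4-negative cells, and in only 4.84% of pairs was the DPP4-positive cell the higher. Cxcl14, a chemokine, had 10.5 against 129 CPM (-3.50), with 10 against 105 cells above 50 CPM. Sfrp1, a secreted inhibitor of WNT signals, had 4.46 against 53.6 CPM (-3.32). In these 4 genes the high cells of the DPP4-positive sort were few.

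Fabp4, the fatty acid carrier of adipocytes and capillary endothelium, had 12.2 against 127 CPM (-3.28). Emb, a partner of transporters in the membrane, Olfm2, a secreted olfactomedin, and Gucy1a1, a subunit of the receptor for nitric oxide, had ratios of -3.14, -2.93 and -2.84. Pdgfrl, P2ry14, a receptor for sugar nucleotides, Kng2, a kininogen, and Alpl, an alkaline phosphatase, had ratios of -2.57 to -2.53. Levels of these 7 genes other than Fabp4 in the DPP4-negative sort ran from 27.2 to 78.0 CPM.

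Genes of progenitor cells leaned to the DPP4-positive sort. Of a list of 27 genes tied to DPP4-positive progenitors, 23 were at or above 20 CPM, and 17 of these were past 2.6-fold higher and 0 lower, beside 1.55% of all genes, with a median log2 ratio of 1.99 against -0.26. The list was drawn up with these sorts and this study known and is no independent evidence of direction. Beside the genes above, it held Sema3c, a guidance signal, at 247 against 29.1 CPM (log2 ratio 3.04), Efhd1 at 177 against 24.0 CPM (2.83), Cd55, which shields cells from complement, at 537 against 180 CPM (1.57), and the WNT ligand gene Wnt2 at 24.5 against 5.40 CPM (1.99). Not past the fold were the matrix genes Fn1 (1.18) and Mfap5 (1.29), both of which were past it with TMM factors (1.47 and 1.57, 19 of 23 genes in all), and Ly6c1 (0.83), Tppp3 (0.42), Cd9 (-0.26) and the hyaluronan synthase gene Has1 (-0.57). Of the 26 listed genes other than Dpp4, the median DPP4-positive cell had 14 above 50 CPM (range 3 to 23) and the median DPP4-negative cell 7 (1 to 16). Within the DPP4-positive sort, Pi16 was above 50 CPM in 202 of the 232 cells with high Dpp4 (87.1%) and in 74 of the other 133 (55.6%).

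Genes of committed preadipocytes, called ASC1a in the study, leaned the other way. Of 26 listed genes, 21 reached 20 CPM, and 9 were past 2.6-fold higher in the DPP4-negative sort and 0 in the DPP4-positive sort, beside 3.07% of all genes (median -1.15). With TMM factors 6 were, since Hsd11b1, Apod and Inmt were then within the fold, at -1.16, -1.29 and -1.12. They included Mmp3, a metalloproteinase (86.1 against 366 CPM, -2.07), G0s2, an inhibitor of lipolysis (56.4 against 235 CPM, -2.04), and Hsd11b1, which activates glucocorticoids (49.0 against 136 CPM, -1.45). Col15a1, a basement membrane collagen, had 84.5 against 189 CPM (-1.15), and the adipocyte regulator Pparg 16.4 against 33.6 CPM (-0.99), both within the fold. Lpl, lipoprotein lipase, had 1151 against 2494 CPM (-1.12). Ebf2, a regulator of the preadipocyte fate, was the only gene of the 21 with a ratio above 0 with totals (153 against 103 CPM, 0.58). With TMM factors Col5a3 (0.17) and Cebpd (0.07) were above 0 as well. The median cell had 10 of the 26 genes above 50 CPM in the DPP4-positive sort and 13 in the DPP4-negative sort.

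Several of these genes are shared with endothelial cells. Cd36, a fatty acid transporter, had 0.958 against 72.6 CPM (-5.23) and Car3, a carbonic anhydrase, 0.975 against 59.1 CPM (-4.93). In the endothelial cells of the same mouse these 2 genes stood at 9677 and 1419 CPM and Fabp4 at 15027 CPM, while the endothelial marker Pecam1 was at 969 CPM there and at 2.83 and 1.91 CPM in the DPP4-positive and DPP4-negative sort. Cd36 was above 50 CPM in 34 of 361 DPP4-negative cells and in 4 of 365 DPP4-positive cells. Without the 17 cells rich in markers of other classes, the ratio of Cd36 was -4.18 and that of Fabp4 -2.56. Fabp4 is itself one of the adipocyte markers by which cells were left out, so its drop is no separate check.

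Genes of the F3-positive stem cells, ASC1b in the study, also leaned to the DPP4-negative sort. Of 16 listed genes, 11 reached 20 CPM, and 7 were past the fold higher in the DPP4-negative sort and 0 in the other, beside 3.07% of all genes (median -1.45). Mgp, an inhibitor of calcification, had 651 against 3709 CPM (-2.51), and Igfbp3, which binds insulin-like growth factors, 96.0 against 505 CPM (-2.38). Fmo2, a monooxygenase, had 17.6 against 81.4 CPM (-2.15), Clec11a, a growth factor of skeletal stem cells, 37.2 against 124 CPM (-1.71), and F3 itself, tissue factor, 135 against 356 CPM (-1.39). F3 was above 50 CPM in 220 DPP4-positive cells (60.3%, 55.1 to 65.3) and 286 DPP4-negative cells (79.2%, 74.7 to 83.3). Vit, a matrix protein, was the gene of the 11 with a ratio above 0 (92.4 against 68.6 CPM, 0.42). With TMM factors 4 of the 11 were past the fold, and F3, Cygb and Adam12, at -1.39, -1.46 and -1.45 with totals, were not, at -1.11, -1.18 and -1.17.

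**Figure D2:**
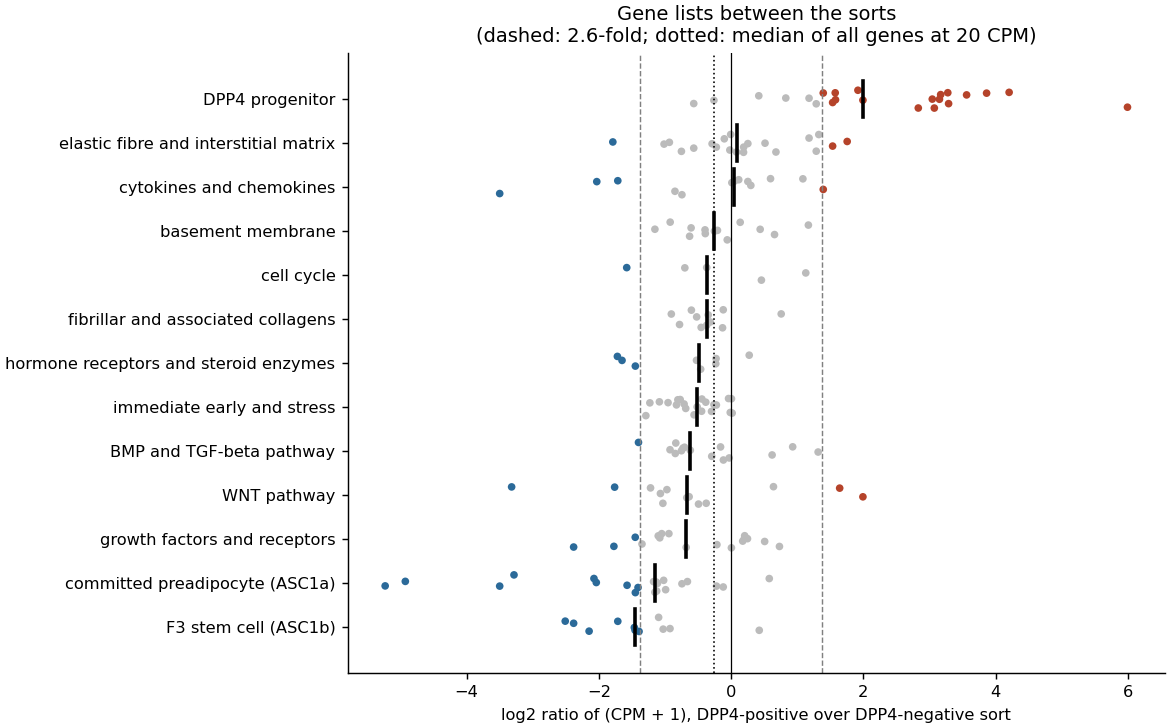
Log2 ratio of (CPM + 1), DPP4-positive over DPP4-negative sort, on the horizontal axis for each gene of 13 lists (rows) that had at least 20 CPM in a sort, coloured where past 2.6-fold, with the median of each list as a black bar. The progenitor list has its median at 1.99 and the ASC1a and ASC1b lists at -1.15 and -1.45, while the median of all genes is at -0.26.

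Markers of different states stood in the same cells. Within the DPP4-positive sort, F3 was above 50 CPM in 155 of 276 cells with high Pi16 (56.2%) and in 65 of 89 cells without (73.0%), and Col15a1 in 81 (29.3%) and 58 (65.2%). Within the DPP4-negative sort, F3 was high in 104 of 127 cells with high Pi16 (81.9%) and in 182 of 234 without (77.8%). Col15a1 was high there in 94 (74.0%) and 190 (81.2%). These shares are descriptions of 1 plate each, and their differences were not tested because cells of a plate share an animal. Tmem176b was high in 8 of 276 DPP4-positive cells with high Pi16 and in 88 of 127 DPP4-negative cells with high Pi16, so cells that shared Pi16 still differed by sort in that gene.

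Matrix genes were mostly within the fold. With totals, no gene of the basement membrane (13 at 20 CPM) or of the fibrillar and associated collagens (11) was past the fold, with medians of -0.25 and -0.37. Nid1, nidogen 1, which links laminin and collagen IV, was the highest of the first at 1.17 (1138 against 506 CPM), and Col6a3 the lowest of the second at -0.91. With TMM factors, Nid1 (1.46) and the collagen IV chain gene Col4a5 (1.62) were past the fold, and the medians were 0.06 and -0.08. Of 21 genes of elastic fibres and interstitial matrix, Fbn1, the scaffold of microfibrils, was higher in the DPP4-positive sort at 1355 against 401 CPM (1.75), and so was Emilin2 at 299.9 against 103 CPM (1.53). Mfap4, another microfibril protein, was lower at 30.9 against 109 CPM (-1.79). With TMM factors the same list had 5 genes past the fold higher in the DPP4-positive sort, with Fn1, Mfap5 and Pcolce2 (1.61) added, and 1 lower. Beside these counts, 1.55% of all genes were past the fold in the DPP4-positive and 3.07% in the DPP4-negative sort with totals.

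Signalling genes split by member, with few past the fold in each list, against the same 1.55% and 3.07% of all genes. In the WNT list (13 genes at 20 CPM), the ligand Wnt2 and the modulator Sfrp2 (338 against 108 CPM, 1.64) were higher in the DPP4-positive sort and the inhibitors Sfrp1 and Dkk3 (9.09 against 33.2 CPM, -1.76) in the DPP4-negative sort, and the receptor genes Fzd1, Fzd4 and Lrp6 were within the fold. Among 13 cytokine and chemokine genes, Ackr3, a scavenger of Cxcl12, was higher in the DPP4-positive sort (723 against 275 CPM, 1.39) and Cxcl12 itself in the DPP4-negative sort (246 against 808 CPM, -1.71), with Cxcl16, which overlaps Zmynd15 on the opposite strand, at 45.6 against 189 CPM (-2.03). Of 15 genes of BMP and TGF-beta signals, Id1, a target of BMP, was past the fold (21.8 against 59.2 CPM, -1.40), which ended with TMM factors (-1.12). Tgfbr2, a receptor of TGF-beta, had 1007 against 404 CPM (1.31), just within the fold, and was past it with TMM factors (1.60).

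Of 17 growth factor genes at 20 CPM, Igfbp3, Igfbp7 (641 against 1753 CPM, -1.45) and Hgf, hepatocyte growth factor (5.26 against 20.4 CPM, -1.77), were higher in the DPP4-negative sort and 0 in the other. The 3 of 17, like the hormone and cell cycle counts that follow, stood beside 3.07% of all genes. With TMM factors Igfbp7 was within the fold (-1.16) and Hgf below the limit of 20 CPM. Of 8 hormone receptor and steroid enzyme genes, Avpr1a, a vasopressin receptor, Akr1c14, a hydroxysteroid dehydrogenase, and Hsd11b1 were higher in the DPP4-negative sort (-1.72, -1.65 and -1.45). With TMM factors 0 of 7 genes were called, since Hsd11b1 and Akr1c14 were within the fold (-1.16 and -1.37) and Avpr1a below the limit of 20 CPM. The oestrogen receptor gene Esr1 was within it at -0.23. Of 5 cell cycle genes at 20 CPM, the cell cycle inhibitor Cdkn1a alone was past the fold (39.2 against 119 CPM, -1.58, and -1.30 with TMM factors, when Cdkn1c was past it at 1.41 instead), and Mki67, a marker of dividing cells, stood at 0.00679 and 0.0141 CPM.

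Genes of cell handling were within the fold but not centred. None of 21 immediate early and stress genes was past 2.6-fold, and their median was -0.51, with Fosb at -1.29 (273 against 669 CPM) and Zfp36 at -1.23. The surface proteins other than DPP4 were alike: Cd34 had 1148 against 841 CPM (0.45), Ly6a, the antigen SCA1, 1544 against 1213 CPM (0.35), and Ptprc, the gene of CD45, 0.136 against 0.0669 CPM. Acta2, smooth muscle actin, had 1.91 against 67.6 CPM (-4.56), and this rested on few cells: 15 of 361 DPP4-negative cells were above 50 CPM. Without the 17 cells rich in markers of other classes the ratio was -1.43. Acta2 is itself one of the smooth muscle markers by which cells were left out, so this drop is no separate check. Abcc9, a channel subunit of pericytes, had 2.44 against 20.7 CPM (-2.66), and was below the limit of 20 CPM with TMM factors.

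Principal components of the 1000 most variable genes, with Dpp4 left out, were computed over whole cells. The first component carried 4.63% of the variance and its leading genes were Pi16, Anxa3, Sema3c and Smpd3 at one end and Apoe, Steap4, Tmem176b and Crispld2 at the other. In 94.2% of pairs the DPP4-positive cell had the higher score, with medians of 16.4 and -16.6. The second component (2.76%) went with the number of genes per cell (Pearson's r -0.88 over 726 cells that share plates, a description). Since the sorts and the genes came from the same cells, this is no test.

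**Figure D3:**
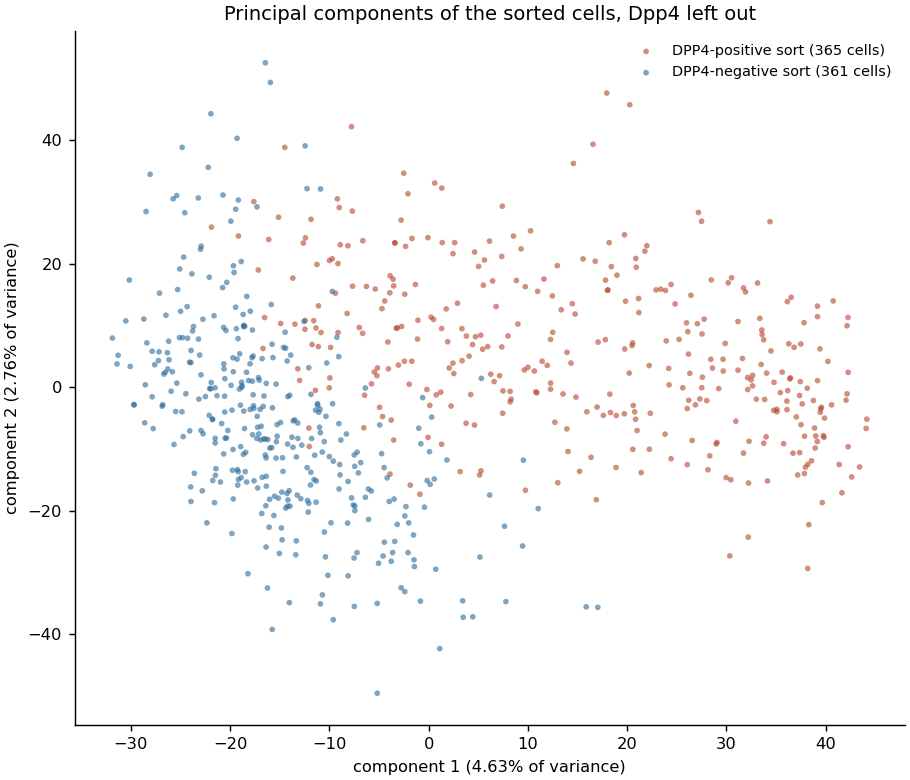
Scores of the 726 cells on principal components 1 (horizontal, 4.63% of variance) and 2 (vertical, 2.76%), with DPP4-positive cells in red and DPP4-negative cells in blue. The DPP4-negative cells have scores of -31.9 to 17.0 on component 1, and the DPP4-positive cells spread from -21.9 to 44.1, so the colours overlap between.

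Cells of the DPP4-positive sort differed among themselves by Dpp4 mRNA. In the 279 cells with a Dpp4 read Pi16 stood at 1553 CPM and in the 86 cells without at 303 CPM, and Wnt2 at 31.0 against 1.50 CPM. Tmem176b went the other way with 4.14 against 29.7 CPM. Of the 81 other genes past the fold higher in the DPP4-positive sort, 77 were also higher in its cells with a Dpp4 read. Their median log2 ratio was 1.50. Of the 5037 genes within the fold, 3037 were higher in those cells. Of the 162 genes higher in the DPP4-negative sort, 105 were lower in those cells (median -0.38), beside 2000 of the 5037 genes within the fold (median 0.08). All these cells came from 1 plate, whose summed counts had also been used to choose the genes. The 11 cells with a Dpp4 read in the DPP4-negative sort were at 97.0 CPM of Pi16, beside 132 CPM in the other 350.

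The 6 other mice gave replicates of a split by Dpp4 mRNA, not of the sort by DPP4 protein. In the DPP4-positive sort of mouse 2, 86 of 365 cells had no Dpp4 read after thinning. Cells without a read in the other mice can therefore include cells with the protein. Mice 1, 4 and 8 were male, and mouse ids 3, 5 and 6/7 were female, the last of which stands for 2 animals. Of their 1402 Pdgfra-positive cells, 31 to 150 per mouse had a Dpp4 read after thinning and 60 to 204 had none, which made 22.2% to 46.3% of a mouse's cells positive. The split thus rested on a single read, and how many such reads belong to the low band described above was not tested. When positive cells needed 3 reads, mouse 4 had 75 of them (21.2% of its cells) instead of 150 (42.4%). Counts were summed per mouse and side, and both sums of a mouse came from the same plates. Median reads per cell were 380491 to 915003 in cells with and 408501 to 814052 in cells without a Dpp4 read. Genes at 100000 reads were more in cells with the read in 6 of 6 mice, for example 3246.5 against 3065.5 in mouse 1, and their part in the results was not tested.

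Of 10167 genes tested, 63 rose in cells with a Dpp4 read (0.62%) and 53 fell (0.521%), at an adjusted p below 0.05 in edgeR's quasi-likelihood test with the mouse as a block and more than 2.6-fold. Of the 82 genes past the fold in the DPP4-positive sort, 80 were tested here (Dpp4 was left out). 36 of the 80 rose (45.0%) and 0 fell, 75 had a fold change above 0, and 63 were higher in all 6 mice (78.8%, beside 5.02% of all genes tested). Of the 162 genes past the fold in the DPP4-negative sort, 161 were tested, 26 fell (16.1%) and 0 rose, and 69 were lower in all 6 mice (42.9%, beside 5.54%). Read from the other side, 36 of the 63 genes that rose (57.1%) and 26 of the 53 that fell (49.1%) were past the fold between the sorts in the same direction. No gene called in both was called in opposite directions.

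**Figure D4:**
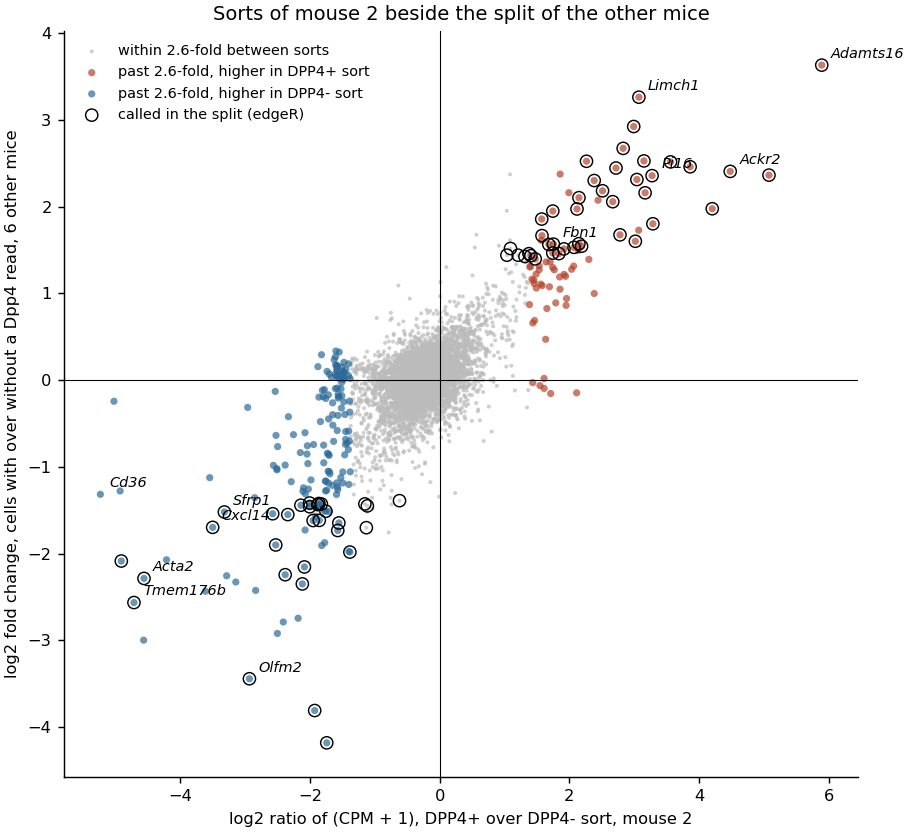
Log2 ratio between the sorts of mouse 2 (horizontal) and log2 fold change between cells with and without a Dpp4 read in the 6 other mice (vertical), for genes with at least 20 CPM in a sort that were tested in the mice. Genes past 2.6-fold between the sorts are red (higher in DPP4-positive) or blue (higher in DPP4-negative) and genes called by edgeR are ringed, and the rings lie in the lower left and upper right corners, while a group of blue points lies near 0 on the vertical axis.

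Pi16 ran from 590 to 1681 CPM over the 6 mice in cells with a Dpp4 read (median 1164) and from 80.2 to 834 CPM in cells without (median 215). It was higher in 6 of 6 mice although the ranges overlapped, because mouse 4 had 834 CPM in its cells without the read. The log2 fold change was 2.36 (SE 0.32, edgeR adjusted p 0.00477).

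Limch1 ran from 16.8 to 43.0 CPM with the read (median 25.8) and from 0.868 to 6.54 CPM without (median 2.71), and the sides did not overlap (log2 fold change 3.26, SE 0.39, edgeR adjusted p 0.00383). Uchl1 ran from 20.7 to 55.2 CPM (median 36.8) and from 0.995 to 17.5 CPM (median 7.85), again without overlap (2.51, SE 0.39, edgeR adjusted p 0.00900). Anxa3 ran from 137 to 600.4 CPM (median 234) and from 49.1 to 140 CPM (median 65.7), with a log2 fold change of 1.80 (SE 0.16, edgeR adjusted p 0.00158). These 3 genes were higher in all 6 mice. Adamts16 rose by 3.63 (SE 0.49, edgeR adjusted p 0.00448), from 0.503 to 23.7 CPM without the read (median 3.45) to 13.8 to 152 CPM with it (median 54.5). Cells without a Dpp4 read in mice 1 and 8 had 23.7 and 11.9 CPM of Adamts16, while 3 reads were found in the DPP4-negative sort of mouse 2. This is not a like comparison, because cells without the read can carry the protein. In the DPP4-positive sort, cells without a Dpp4 read had 2.63 CPM of Adamts16.

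Ackr2, Smpd3, Opcml, Ptgs1 and Arl4d also rose, with log2 fold changes of 1.97 to 2.53 and edgeR adjusted p-values of 0.00407 to 0.0150, and the microfibril gene Fbn1 rose by 1.57 (SE 0.14, edgeR adjusted p 0.00158). Of the leading genes of the DPP4-positive sort, Adgrg2 did not pass (1.73, SE 0.61, edgeR adjusted p 0.201). The progenitor list had 15 of 24 tested genes called higher and 0 lower, beside 0.62% of all genes, with a median of 1.92. Wnt2 was at 2.16 with an edgeR adjusted p of 0.120.

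The 6 largest increases were those of Dact2, Gm45187, Mcf2l, Islr2, Adamts16 and Bmp7. Dact2, a modulator of WNT and TGF-beta signals, had 3.14 to 64.8 CPM with the read and 0.0249 to 2.61 CPM without (log2 fold change 4.74, SE 0.50, edgeR adjusted p 0.00212), with no overlap. In the sorts it had 13.6 against 0.796 CPM, under the limit of 20 CPM. Bmp7, a ligand of BMP receptors, rose by 3.34 (SE 0.64, edgeR adjusted p 0.0225) but was lower in mouse 6/7 with 1.70 against 2.03 CPM, and its call was lost when any of mice 1, 3, 4 or 5 was left out. Mcf2l and Gm45187, an unnamed gene, were higher in 6 of 6 mice (3.92 and 4.52). Gm45187 overlaps Uvrag on the opposite strand, and Islr2, which was also higher in 6 of 6 mice (3.86), overlaps the abundant Islr on the same strand, so these values are uncertain. The call of Gm45187 was lost without mouse 3 or 8 and that of Islr2 without mouse 3, while Mcf2l and Dact2 kept theirs whichever mouse was left out.

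**Figure D5:**
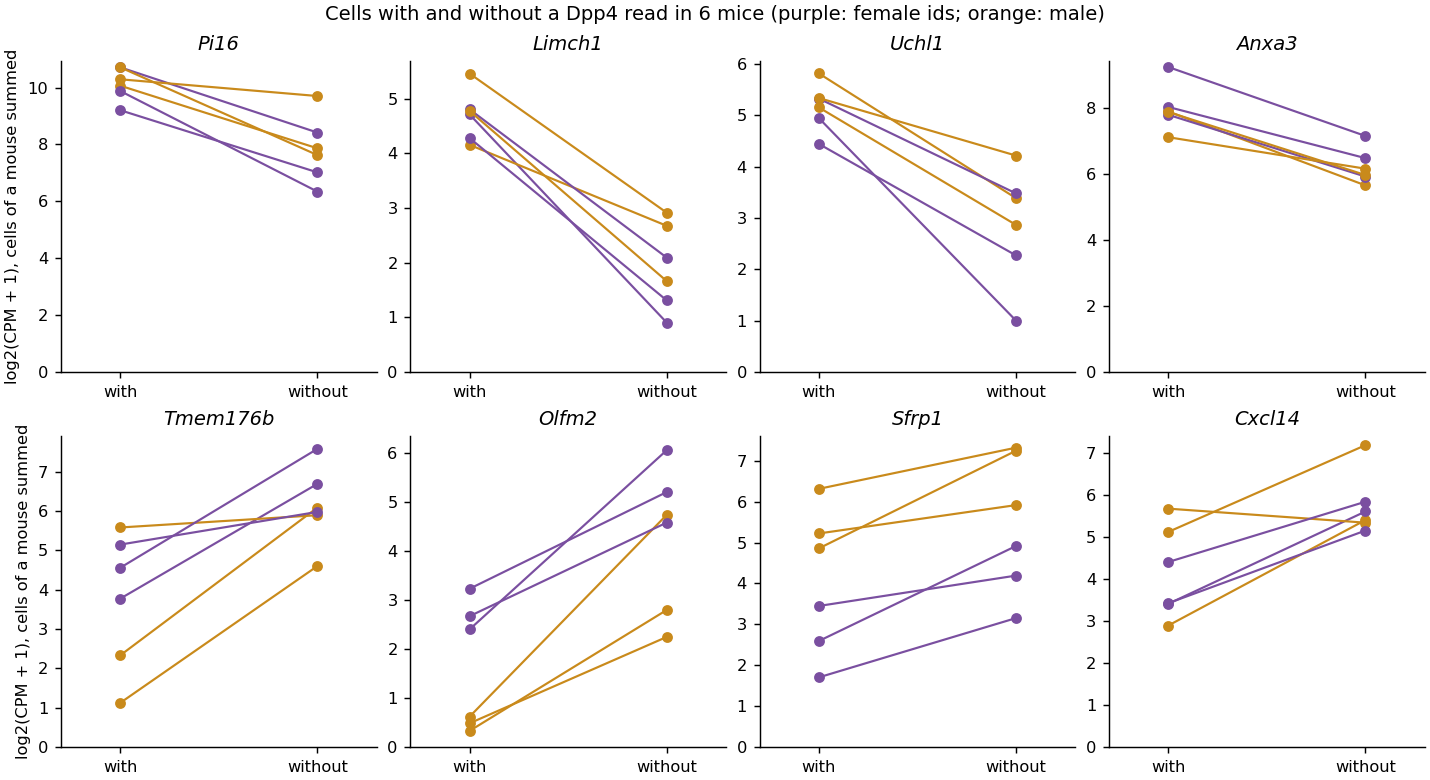
Level of 8 genes as log2(CPM + 1) in cells with and without a Dpp4 read of the same mouse (joined points; 3 female ids in purple, 3 males in orange). Pi16, Limch1, Uchl1 and Anxa3 go down from left to right in all 6 mice, Tmem176b, Olfm2 and Sfrp1 go up in all 6, and Cxcl14 goes up in 5 of 6.

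Among the genes that fell, those named from the sorts moved less evenly. Tmem176b ran from 1.17 to 46.8 CPM with a Dpp4 read (median 17.6) and from 23.2 to 190 CPM without (median 64.4), lower in 6 of 6 mice (log2 fold change -2.56, SE 0.53, edgeR adjusted p 0.0303). Olfm2 ran from 0.255 to 8.39 CPM (median 2.41) and from 3.75 to 65.9 CPM (median 24.4), also lower in 6 of 6 (-3.44, SE 0.47, edgeR adjusted p 0.00485). Sfrp1 fell by 1.52 on the log2 scale (SE 0.27, edgeR adjusted p 0.0176) in 6 of 6 mice. Cxcl14 fell by 1.70 (SE 0.34, edgeR adjusted p 0.0278) in 5 of 6 mice, and mouse 4 had 50.05 against 39.5 CPM. In these 4 genes the ranges of the sides overlapped between mice.

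Of these 4, Olfm2 kept its call without any of the mice, while Tmem176b lost it without mouse 1, 3, 5 or 8, Sfrp1 without mouse 1, 3 or 5, and Cxcl14 without any of mice 1, 3, 5, 6/7 and 8. Alpl (-1.90), Pdgfrl (-1.54) and Acta2 (-2.29) also fell. Their calls were lost without 5, 4 and 2 of the mice in turn. Tmem176a (-2.07, edgeR adjusted p 0.0575), Fabp4 (-2.25, 0.0545), Gucy1a1 (-2.42, 0.0659), P2ry14 (-0.98, 0.0719) and Emb (-2.33, 0.171) had values below 0 and did not pass, and Kng2 was at -0.13 (0.896). By contrast, Pi16, Anxa3, Uchl1, Smpd3, Arl4d, Limch1, Ackr2, Ptgs1, Adamts16 and Opcml kept their calls whichever mouse was left out.

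The largest decreases were those of Thbs4, Smoc1, Dkk2, Cpe, Serpina3g and Fmod. Cpe, a carboxypeptidase that processes peptide hormones, ran from 0.0902 to 36.3 CPM with a Dpp4 read and from 12.3 to 126 CPM without, lower in 6 of 6 mice (log2 fold change -4.18, SE 0.80, edgeR adjusted p 0.0223). Fmod, a small proteoglycan that binds collagen, ran from 0.812 to 122 CPM and from 21.2 to 279 CPM, lower in 6 of 6 mice (-3.73, SE 0.70, edgeR adjusted p 0.0206). Thbs4, a thrombospondin, was found in few mice: it had 0 reads on both sides in mice 1, 3 and 5, and 1002 and 2462 reads without the Dpp4 read in mice 4 and 6/7 against 17 and 14 with it. Its fold change of -6.07 (edgeR adjusted p 0.0399) thus came from the reads of those 2 mice, and its call was lost without mouse 3 or 8. Dkk2, an inhibitor of WNT signals, had 495 to 909 reads in cells without the Dpp4 read in mice 1, 4, 6/7 and 8 and at most 54 in cells with it, and 5 or fewer reads in the other two. The calls of Smoc1 and Dkk2 were lost without mouse 3 or 6/7, that of Cpe without mouse 1, 5 or 6/7, that of Fmod without mouse 1, 3 or 5, and that of Serpina3g without any of mice 1, 3, 4, 5 and 8.

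The lists used for the sorts were counted in the mice as well, where 0.62% of all genes tested rose and 0.521% fell. Of 24 tested ASC1a genes, Col15a1 and Cxcl14 fell and 0 rose (median -0.80), and of 14 ASC1b genes 0 passed in edgeR's test in either direction (median -0.85, 1 above 0). Col15a1 fell by 1.43 (SE 0.16, edgeR adjusted p 0.00299), from 66.2 to 368 CPM without to 19.0 to 158 CPM with a Dpp4 read, in 6 of 6 mice. F3 was at -0.70 (SE 0.18, edgeR adjusted p 0.0664) and lower in 5 of 6 mice. Mgp was at -1.03 (SE 0.26, edgeR adjusted p 0.0670). Col15a1 is also in the basement membrane list, where it was the 1 call among 18 genes. None of 12 collagen genes, 7 cell cycle genes or 22 immediate early and stress genes passed, with medians of -0.37, 0.05 and -0.39. Sema3d and Sema3e, secreted guidance signals, rose among 25 growth factor genes (2.15 and 2.10), Ccl19, a chemokine for lymphocytes, fell among 18 cytokine genes (-1.81), and Cyp7b1, an oxysterol hydroxylase, fell among 14 hormone genes (-1.93). Fbn1 was the 1 call among 22 genes of elastic fibres, Bmp7 the 1 call among 24 genes of BMP and TGF-beta signals, and Sfrp1 and Dkk2 fell among 22 WNT genes, with 0 that rose. Of 5 smooth muscle markers tested, Acta2 and Mylk fell (median of the list -2.15).

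Ribosomal protein genes behaved differently in the sorts and in the mice. This group was chosen after its values were seen. Of 118 such genes and pseudogenes at 20 CPM, 17 were among the 162 genes past the fold in the DPP4-negative sort, and their median between the sorts was -0.76. In the mice, where both sides of a comparison share plates, 0 of the 118 were called by edgeR in either direction and their median was 0.08. The 17 had a median of 0.07 in the mice against -1.58 between the sorts. Leaving out this group, 26 of 144 genes past the fold in the DPP4-negative sort fell in the mice (18.1%), with a median of -1.03.

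Male and female mice were compared in the same fit. The difference of the Dpp4 split between the sexes passed for 0 of 10167 genes in edgeR's quasi-likelihood test (smallest adjusted p 0.571), with 491 genes at an unadjusted p below 0.05, and for 17 genes in edgeR's likelihood ratio test and 24 in DESeq2. The median log2 fold change of the 63 genes that rose was 1.97 in females and 1.92 in males, and that of the 53 genes that fell -1.76 and -1.98. Since these genes were called over both sexes together, the medians cannot show whether the sexes agree. In males alone 0 genes were called by edgeR, with 968 of 8904 at an unadjusted p below 0.05, and in females alone 44 rose and 37 fell. Adamts16 had a fold change of 4.85 in females and 2.47 in males, with an unadjusted p of 0.000574 and an edgeR adjusted p of 0.572 for the difference.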

How the data were processed

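Counts were those the authors deposited: reads per gene and cell, not normalized, from Smart-seq2 plates, which per the labels and the study's methods were demultiplexed with bcl2fastq, aligned with STAR to mm10 and quantified with Salmon. Tool versions and strandedness are not given in the sources used here, and no molecular identifiers were used, so intervals cover counting error only. Of 23507 gene rows, 23461 matched GENCODE vM21. Spike-in rows were left out of library totals (1.98% of all reads).

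Cells with at least 20 CPM of Pdgfra were kept. For the sorts, counts were summed per plate, and genes with at least 20 CPM in a sort and more than 2.6-fold apart on the (CPM + 1) scale were counted. Shares of cells used reads thinned to 100000 per cell. In the other mice, cells were split by a thinned Dpp4 read, counts were summed per mouse and side, and genes with at least 600 counts in 2 sums were tested with edgeR's quasi-likelihood test (TMM factors, mouse as a block, Benjamini-Hochberg adjustment). The block was used because both sums of a mouse came from the same animal (mouse 6/7 stands for 2 animals), and their deviations from the group means correlated at 0.467 to 0.664. Scripts were tested on simulated data. Doublets were not called: cells with more than 1000 CPM of another class's markers were left out as an alternative. Promoter windows came from RefSeq (GRCm38.p6), with the gene positions of GENCODE.

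Named genes were the 12 with the largest ratio each way between the sorts that had a read in at least 25% of cells, up to 6 per list and direction past the fold, the 6 largest fold changes each way among genes called in the mice, and the sorted proteins. List members within the fold, list genes called in the mice and the leading genes of the components were named besides, after their values were seen. Members and lists were chosen with earlier results of these data known. Alternatives were other level minimums, pseudocounts, scalings, thinning depths, Pdgfra minimums, tests and leaving out each mouse, and 2 were chosen after seeing the data (totals without ribosomal RNA, and cells above 50 CPM). R 4.3.3, edgeR 4.0.16, DESeq2 1.42.0, Python 3.11.15, scipy 1.17.1 and pandas 2.3.3 were used.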

Additional observations from a re-analysis of the deposited data

How the results depend on the processing

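The counts between the sorts of 82 and 162 genes were 46 and 102 with a minimum of 50 CPM. The count higher in the DPP4-negative sort was 85 with TMM factors and 83 with DESeq2 size factors, and the count higher in the DPP4-positive sort was 151 with totals that left out ribosomal RNA, which takes a larger share of reads in that sort. With 1 plate for each sort, no alternative tests the sort itself.

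Shares of cells with a read depended on depth and on the limit. In the DPP4-positive sort the shares for Dpp4, Pi16, F3 and Col15a1 were 94.5%, 100%, 88.2% and 83.8% without thinning, 64.1%, 77.0%, 58.4% and 36.4% at 5 or more thinned reads, and 63.6%, 75.6%, 60.3% and 38.1% above 50 CPM. In the DPP4-negative sort those for Pi16, F3 and Col15a1 were 84.8%, 99.7% and 100% without thinning, 34.3%, 80.1% and 77.0% at 5 or more reads, and 35.2%, 79.2% and 78.7% above 50 CPM, and F3 was at 95.6% with thinning to 150000 reads.

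In the mice, the 63 genes that rose and 53 that fell were 104 and 134 when positive cells needed 3 Dpp4 reads, 102 and 165 in DESeq2, 36 and 19 with a Pdgfra minimum of 100 CPM and 0 and 0 in males alone. The likelihood ratio test gave 133 that fell, and no filter on low counts 30. Without the block that pairs the sides of a mouse, 31 rose and 3 fell. Leaving out each mouse in turn gave 41 to 71 that rose and 14 to 49 that fell, with 14, 16, 20 and 29 that fell without mouse 1, 3, 5 and 8, and 41 that rose without mouse 1. The cause of these changes of count was not tested. The sex difference passed for 7 genes with the larger value in males and 10 in females in the likelihood ratio test, and for 13 and 11 in DESeq2. No called fold change or ratio of a named gene changed sign, while the median ratio of all genes between the sorts moved from -0.26 to 0.04 with TMM factors. Of the fold changes of named genes in the mice, 922 kept their side of the threshold under an alternative, 126 no longer passed and 41 newly passed.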
